A study of Mus musculus with 3 samples.

Results

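The citrate cycle and fatty acid oxidation genes described here are 35 genes chosen by symbol. They encode the pyruvate dehydrogenase complex, the citrate cycle, the carnitine shuttle, mitochondrial beta-oxidation and the electron transfer flavoprotein system. Each symbol was found on exactly 1 line of the deposited table, which holds 56691 genes, and all 35 reached an FPKM of 1 in at least 1 library. FPKM divides the reads of a gene by its exonic length and by the size of the library, so levels can be compared between genes of different length.

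RNA was sequenced from 3 cultures of mouse gastric organoids, 1 library per group. Organoids are epithelial structures grown in a gel matrix, here from the stomach corpus and in a medium for proliferation. The group labelled Gpx4 KO-Mist1+ came from Gpx4F/F;Mist1Cre/ERT2;RFPLSL mice, with both Gpx4 alleles floxed. The Mist1+ and Mist1- groups have a wild-type label and came from Mist1Cre/ERT2;RFPLSL mice. All 3 groups thus share the inducible Cre recombinase at the Mist1 locus, a gene active in secretory cells, and a red fluorescent reporter behind a stop cassette. The mice were about 8 weeks old, and every title also carries the label P5. How the cells with and without Mist1 activity were separated, and how many animals stand behind a culture, is not given in the sources used here. Since each group is a single library, no difference below was tested against replicates, and every interval covers counting error only.

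The libraries held 16396693 counts for the one labelled Gpx4 KO-Mist1+, 16187378 for Mist1+ and 14943918 for Mist1-. On 1000 bases of exon, 3 counts equal 0.183, 0.185 and 0.201 FPKM in the same order, and even the lowest of the 35 genes stood well above that. Gpx4 itself had 2569 counts in the library labelled as its knockout, 1998 in Mist1+ and 4399 in Mist1-. It was thus not lower in the labelled knockout than in Mist1+, where a count over the whole gene includes any exons a deletion leaves in place, and the label is kept only as a label. The Mist1 gene, named Bhlha15, had 370 counts in the labelled knockout, 580 in Mist1+ and 282 in Mist1-. In FPKM these are 6.46, 10.2 and 5.40. Mist1- thus held Bhlha15 transcripts too, and Mist1+ and Mist1- are likewise used as labels. Epithelial markers were abundant in all 3 libraries, with sums of 1859, 1945 and 2556 FPKM over 4 genes. Fibroblast and muscle, immune, endothelial and adipocyte markers summed to at most 0.160 FPKM in any library. Of 7 parietal cell markers, the acid-secreting cells that are rich in mitochondria, 3 reached an FPKM of 1, and Atp4b and Slc26a7 had no counts in any library. In bulk RNA, fewer cells of a type and less RNA per cell cannot be told apart.

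Pyruvate from glycolysis enters mitochondria and is turned into acetyl-CoA by the pyruvate dehydrogenase complex. Kinases switch that complex off and phosphatases switch it on. Fatty acids reach the same acetyl-CoA by another road: they are coupled to carnitine by Cpt1a, carried across the inner membrane by Slc25a20, returned to CoA by Cpt2 and shortened in rounds of dehydrogenation, hydration, dehydrogenation and thiolysis. Electrons from the first of these steps pass through the electron transfer flavoprotein to ubiquinone, and the acetyl-CoA of both roads is oxidised in the citrate cycle.

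The 35 genes spanned a wide range of levels. Mdh1 was the highest of them in Mist1+ and Mist1-, and Pdha1 in the labelled knockout. Mdh1, the cytosolic malate dehydrogenase, had 95.1 FPKM in the labelled knockout, 97.8 in Mist1+ and 149 in Mist1-. Pdha1, a pyruvate dehydrogenase subunit, had 116, 88.5 and 84.5 FPKM in the same order. The carnitine carrier gene Slc25a20 was the lowest in every library, with 1.80, 2.42 and 2.76 FPKM. The 3 carnitine shuttle genes had a lower median than the 11 beta-oxidation enzymes, 5.35, 6.18 and 4.01 FPKM beside 21.3, 20.0 and 25.2 FPKM. That holds for Cpt1a and Slc25a20 more than for Cpt2. Cpt2 had 14.4, 15.7 and 16.7 FPKM, above the beta-oxidation gene Hadhb at 10.6, 13.3 and 14.5 FPKM. Together the 35 genes took 0.423% of the counts in the labelled knockout, 0.416% in Mist1+ and 0.485% in Mist1-. All 35 carry a mitochondrial term in the table's own gene ontology column, 18 of them for the matrix and 13 for the inner membrane. Mdh1 has one although its known enzyme works in the cytosol.

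**Figure D1:**
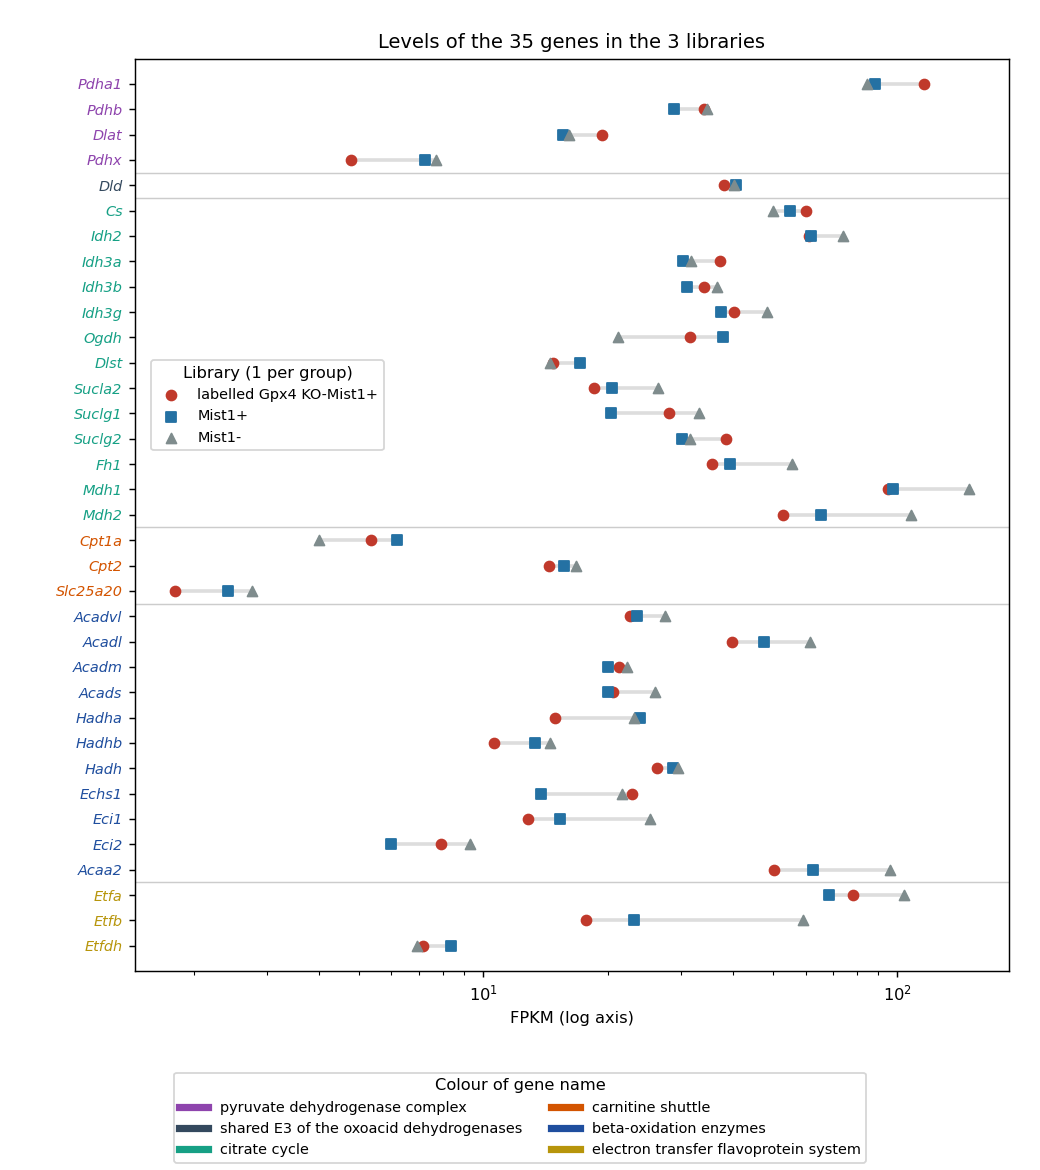
FPKM of the 35 genes on a log axis, 1 row per gene in order of role, with a red circle for the library labelled Gpx4 KO-Mist1+, a blue square for Mist1+ and a grey triangle for Mist1-. For 23 genes the grey triangle is the rightmost point, and Etfb has the widest spread, with 17.7, 23.1 and 59.2 FPKM.

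The labelled knockout was the highest library for 6 of the 35 genes, Mist1+ for 6 and Mist1- for 23. Over the 13351 genes that reached an FPKM of 1 anywhere, the same shares were 30.7%, 36.9% and 32.5%. The labelled knockout was the lowest for 17 of the 35, Mist1+ for 12 and Mist1- for 6, beside 35.4%, 18.8% and 45.7% of all genes. This order rests on the scaling. With FPKM brought to a common column sum, the labelled knockout was the highest for 12, Mist1+ for 13 and Mist1- for 10. The shares of all genes were not worked out with that scaling, which moves every gene. The median log2 ratio of all genes for Mist1+ against Mist1- went from 0.15 to 0.40. The columns sum to 310243 FPKM in the labelled knockout, 302663 in Mist1+ and 379459.5 in Mist1-.

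Setting the labelled knockout against Mist1+ addresses the loss of Gpx4, the peroxidase that protects membranes from ferroptosis. Since Gpx4 counts were not lower, every direction below belongs to the label. The oxidative genes differed little as a group. None of the 35 was at least 2-fold higher, where 4.81% of all genes were, and none at least 2-fold lower, where 2.74% were. The median log2 ratio of FPKM + 1 was -0.09 for the 35 genes and -0.09 for all 13351. By role, 3 of 4 pyruvate dehydrogenase genes, 6 of 13 citrate cycle genes, none of 3 carnitine shuttle genes, 4 of 11 beta-oxidation genes and 1 of 3 electron transfer flavoprotein genes were above 0, and Dld, shared by both dehydrogenase complexes, was below. These counts and calls use FPKM + 1, whereas the folds given with intervals use counts and run larger for low genes. At 1.5-fold, 1 gene was higher, the enoyl-CoA hydratase gene Echs1, and 1 was lower, the trifunctional protein gene Hadha, beside 10.6% and 11.3% of all genes. In all, 14 of the 35 had a log2 ratio above 0 and 21 below, beside 40.7% and 58.8% of all genes. Of the 35 signs, 31 were the same under both other scalings and with the trend on gene length removed, and the 4 that turned were Dld, Idh2, Mdh1 and Acadvl, all between -0.09 and -0.02.

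Setting Mist1+ against Mist1- addresses the difference that Mist1 activity marks. Here the median log2 ratio was -0.22 for the 35 genes and 0.15 for all genes, and 31 of the 35 lay below that median of all genes. Beside them, 19 other genes of mitochondrial fatty acid oxidation had a median of 0.16 and 14 peroxisomal genes one of 0.11. With the trend on gene length removed these medians were 0.03 and 0.12, beside -0.13 for the 35 genes and 0.15 for all genes. The gap of -0.37 was -0.31 with a common column sum, -0.42 with median ratio scaling and -0.28 with the length trend removed, and under these settings 30, 31 and 32 of the 35 lay below the median of all genes. The sign of the members' own median was not stable, since it was 0.09 with a common column sum. Only Etfb was at least 2-fold lower, where 5.73% of all genes were, and none was at least 2-fold higher, where 7.88% were. At 1.5-fold on the scale of FPKM + 1, 8 were lower and 1, Ogdh, was higher, beside 15.0% and 23.7% of all genes. With a common column sum this turned to 1 lower and 2 higher, and with a pseudocount of 5 it was 3 lower and 1 higher. The matching shares of all genes were not worked out at these settings. Their median moved from 0.15 to 0.40 with the common column sum and to 0.08 with that pseudocount. Above 0 stood 8 of the 35 and below 0 stood 27, beside 58.8% and 40.5% of all genes, and with a common column sum 14 stood below 0. The 8 lower by 1.5-fold as reported were Suclg1, Mdh1, Mdh2, Echs1, Eci1, Acaa2, Etfa and Etfb. Calls over all genes were split 1052 higher to 765 lower as reported, 2117 to 344 with a common column sum and 648 to 1223 with median ratio scaling. The median over all genes moved with them, to 0.40 and to -0.02.

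Signs that held under all of these settings for Mist1+ against Mist1- were found for 14 of the 35 genes. Ogdh and Cpt1a were higher, and Idh3g, Sucla2, Suclg1, Fh1, Mdh1, Mdh2, Echs1, Eci1, Eci2, Acaa2, Etfa and Etfb were lower. The other 21 changed sign with at least 1 of the settings, and for those the values below are given without a direction.

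**Figure D2:**
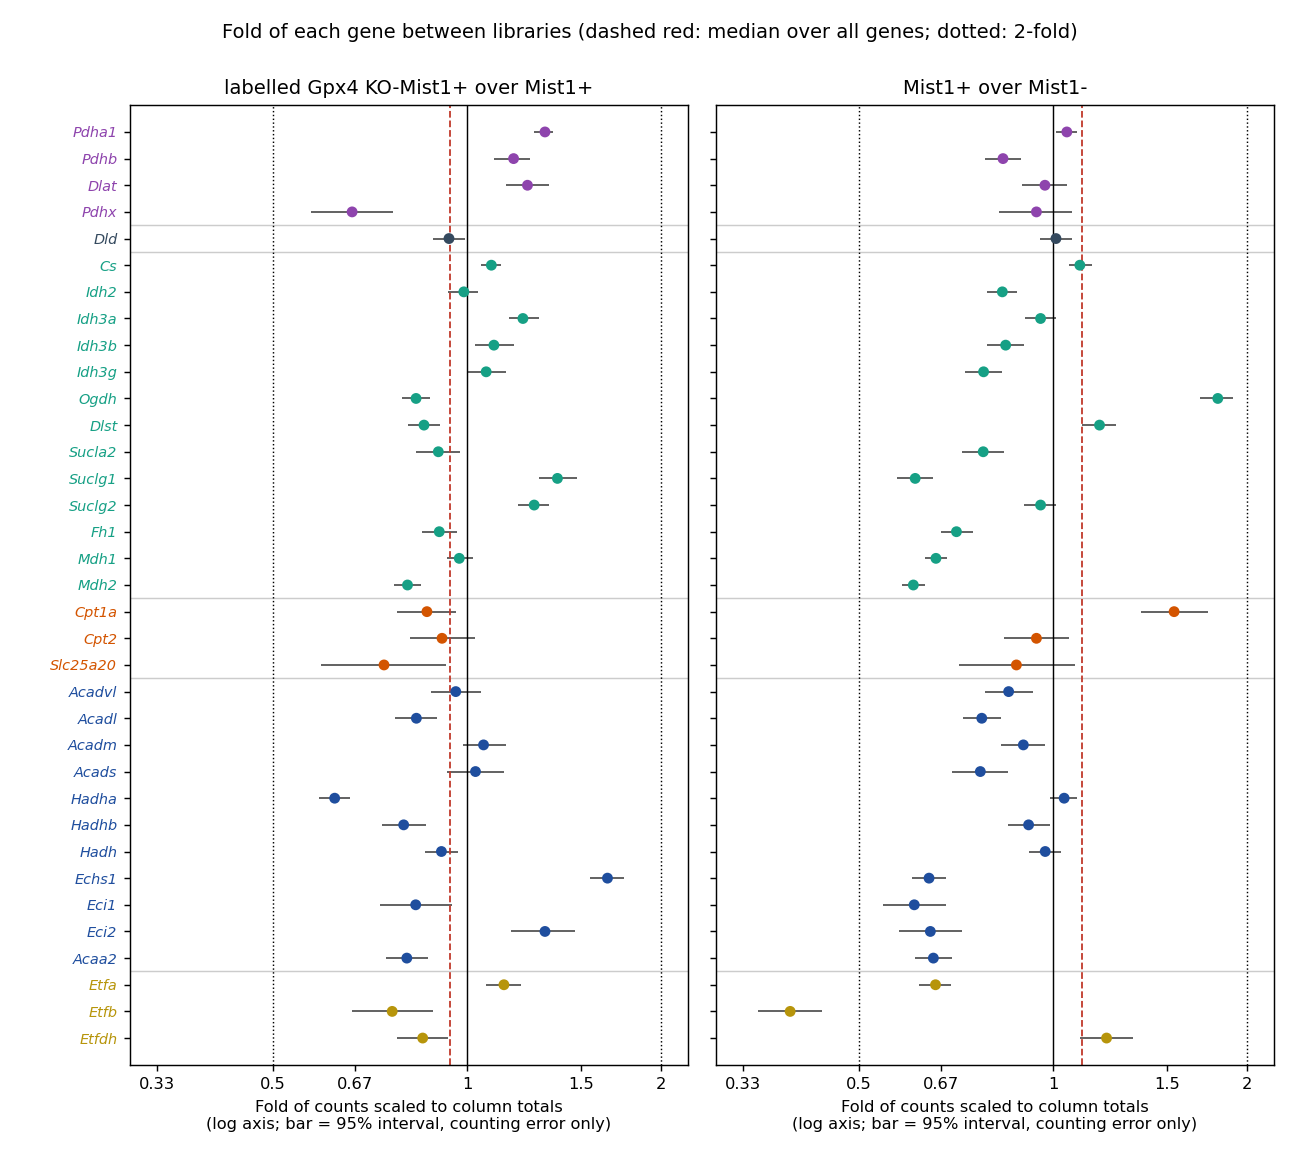
Fold of counts scaled to column totals for each of the 35 genes, on log axes, for the labelled knockout over Mist1+ on the left and Mist1+ over Mist1- on the right; bars are exact 95% intervals for counting error, dotted lines mark 2-fold and the dashed line the median log2 ratio over all genes written as a fold. On the right 31 of the 35 genes lie left of the dashed line, with Etfb alone beyond 2-fold, and on the left the points lie on both sides of it.

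These values go with gene length. For Mist1+ against Mist1-, log2 ratio and exonic length had a Spearman rho of 0.62 for the 35 genes and 0.49 for all 13351, so longer genes had higher ratios. For the labelled knockout against Mist1+ the rho was 0.09 and -0.02, and for the labelled knockout against Mist1- it was 0.57 and 0.39. These are correlations across genes of the same libraries, and genes are not independent replicates. The 35 genes ran from 1164 bases for Etfb to 9559 bases for Dlst, with a median of 3913. The 17 shorter members had a median log2 ratio of -0.36 for Mist1+ against Mist1- and the 17 longer ones -0.06. The part of length in the individual folds was not tested beyond removing the trend.

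**Figure D3:**
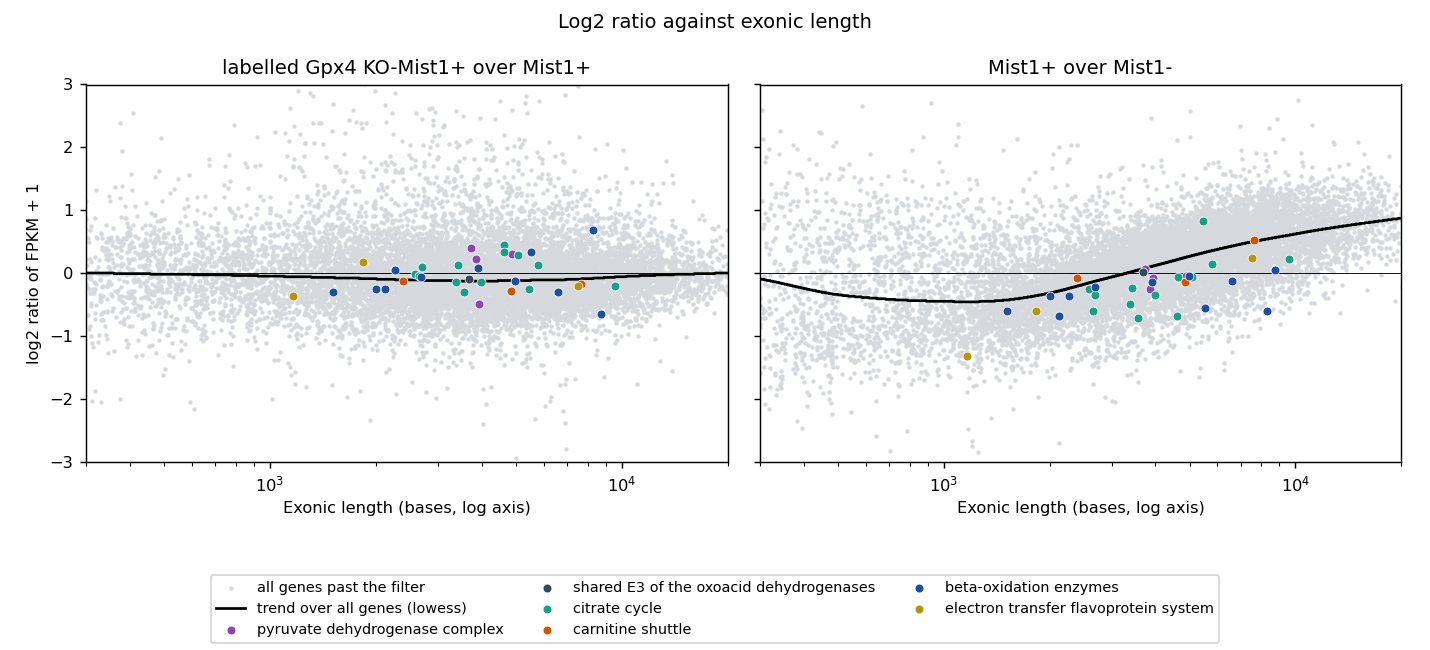
Log2 ratio of FPKM + 1 against exonic length in bases on a log axis, with all genes in grey, the lowess trend over them in black and the 35 genes coloured by role, for the labelled knockout over Mist1+ on the left and Mist1+ over Mist1- on the right; genes beyond a log2 ratio of 3 or outside the lengths shown are not drawn. On the right the trend climbs with length and the coloured points lie mostly under it, with a median of -0.13 for the 35 genes and 0.15 for all genes once it is removed.

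In the pyruvate dehydrogenase complex, the catalytic subunits were higher in the labelled knockout and the binding protein was lower. Pdha1 (ENSMUSG00000031299, chromosome X, 160122209 to 160138413, minus strand in GRCm38), the E1 alpha subunit on which the kinases act, had 7125 counts in the labelled knockout, 5347 in Mist1+ and 4715 in Mist1-. It was 1.32-fold (1.27 to 1.36) higher in the labelled knockout than in Mist1+. Its partner Pdhb, the E1 beta subunit, had 34.1, 28.9 and 34.6 FPKM in the same order and was 1.18-fold (1.10 to 1.25) higher. Dlat, the E2 acetyltransferase core, had 19.4, 15.6 and 16.1 FPKM and was 1.24-fold (1.15 to 1.34) higher. The labelled knockout was thus the highest library for Pdha1 and Dlat and close to Mist1- for Pdhb, and none of these differences reached 1.5-fold.

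Pdhx, which anchors the E3 enzyme to the core, went the other way. It had 309 counts in the labelled knockout, 460 in Mist1+ and 451 in Mist1-, which is 4.80, 7.23 and 7.68 FPKM. It was 1.51-fold (1.30 to 1.75) lower in the labelled knockout than in Mist1+. The labelled knockout thus stood apart from both other libraries, which lay close to each other. Dld, the E3 that this complex shares with the oxoglutarate complex, hardly differed, with 38.2, 40.8 and 40.4 FPKM. Within a library, Pdha1 was 3.42-fold Pdhb in FPKM in the labelled knockout (3.26 to 3.59), 3.06-fold in Mist1+ (2.90 to 3.23) and 2.44-fold in Mist1- (2.32 to 2.57). Pdha1 shares 16.1% of its exonic bases with Map3k15 on the other strand in GENCODE M21, a gene with 77, 76 and 38 counts, and strand use in the counting is not given in the sources used here.

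Around this complex stand genes that open or close the pyruvate gate. Of the 9 listed, 8 passed the filter of an FPKM of 1. Against Mist1+, the labelled knockout was higher by 2-fold or more for 1 and lower by that much for none, with a median log2 ratio of -0.07. The exception was Pdk1 (ENSMUSG00000006494, chromosome 2, 71873224 to 71903858, plus strand), a kinase that inactivates Pdha1 and a known target of the hypoxia-inducible factor. It had 40.9 FPKM in the labelled knockout, 16.3 in Mist1+ and 17.6 in Mist1-. Pdk1 was 2.51-fold (2.38 to 2.64) higher in the labelled knockout than in Mist1+. Only the labelled knockout was high, and Mist1+ and Mist1- lay close to each other.

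The other kinases did not move as far. Pdk2 had 7.56, 5.31 and 4.15 FPKM and was 1.42-fold (1.22 to 1.67) higher in the labelled knockout than in Mist1+. Pdk3 had 546, 551 and 496 counts. Pdk4, the starvation-induced kinase of muscle and liver, had 2, 3 and 4 counts, too few to compare. The phosphatase catalytic subunit Pdp1 had 4.07, 4.32 and 4.17 FPKM, and Pdp2 had 7.47, 7.93 and 4.93. Pdpr, the regulatory subunit of that phosphatase, had 580 counts in the labelled knockout, 677 in Mist1+ and 42 in Mist1-, so Mist1- stood far below the others. The fold of Pdpr in Mist1+ over Mist1- was 14.9 (10.9 to 20.8). Both genes of the mitochondrial pyruvate carrier were lowest in the labelled knockout and highest in Mist1-. Mpc1 had 12.7, 15.8 and 18.8 FPKM, and Mpc2 had 3.52, 5.12 and 7.24. Mpc2 was 1.45-fold (1.28 to 1.65) lower in the labelled knockout than in Mist1+ and 1.41-fold (1.27 to 1.57) lower in Mist1+ than in Mist1-. The log2 ratio of Mpc1 in Mist1+ against Mist1-, -0.24, was 0.07 with a common column sum and 0.21 with the length trend removed.

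**Figure D4:**
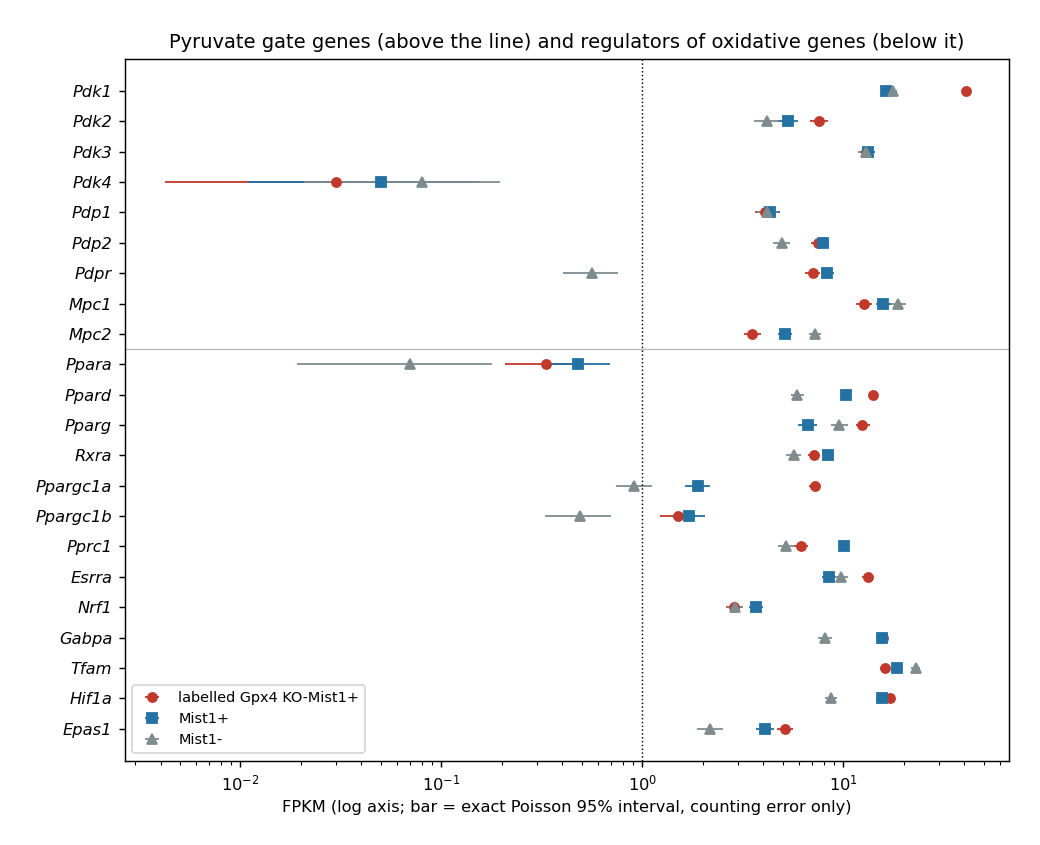
FPKM on a log axis of the 9 pyruvate gate genes above the grey line and 13 regulators of oxidative genes below it, with exact Poisson 95% intervals for counting error; the dotted line is an FPKM of 1. The red circle of the labelled knockout lies right of both other libraries for Pdk1 at 40.9 FPKM and for Ppargc1a at 7.23 FPKM, and the grey triangle of Mist1- lies far left for Pdpr at 0.560 FPKM.

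In the citrate cycle the 13 genes together had 548 FPKM in the labelled knockout, 545 in Mist1+ and 679.9 in Mist1-, with a median log2 ratio of -0.02 for the labelled knockout against Mist1+ and -0.26 for Mist1+ against Mist1-. Citrate synthase, Cs, which makes citrate from acetyl-CoA, had 60.1, 55.1 and 50.1 FPKM. The 3 subunits of the NAD-dependent isocitrate dehydrogenase were all slightly higher in the labelled knockout than in Mist1+, where 40.7% of all genes were above 0. Idh3a had 37.2, 30.4 and 31.8 FPKM and was 1.22-fold (1.16 to 1.29) higher, while Idh3b was 1.10-fold (1.03 to 1.18) higher and Idh3g had 1786, 1646 and 1948 counts. The catalytic Idh3a was 0.922-fold its regulatory partner Idh3g in the labelled knockout, 0.808-fold in Mist1+ and 0.660-fold in Mist1-. Idh3a is the longer gene, at 5072 bases beside 2701. Their log2 ratios of Mist1+ to Mist1- were -0.06 and -0.35, but -0.19 and -0.07 with the length trend removed. Idh2, the NADP-dependent enzyme, was at 61.1, 61.8 and 74.1 FPKM.

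Ogdh (ENSMUSG00000020456, chromosome 11, 6291633 to 6356642, plus strand) encodes the E1 of the oxoglutarate dehydrogenase complex, a step at which the cycle is regulated. It had 31.6 FPKM in the labelled knockout, 37.9 in Mist1+ and 21.1 in Mist1-, so Mist1- was the low library. Ogdh was 1.80-fold (1.69 to 1.90) higher in Mist1+ than Mist1-, a log2 ratio of 0.82 that was 0.64 with the length trend removed. Against Mist1+ it was 1.20-fold (1.14 to 1.26) lower in the labelled knockout. Its E2 partner Dlst had 14.7, 17.1 and 14.5 FPKM. The ratio of Ogdh to Dlst, which no scaling of libraries can alter, was 2.16 in the labelled knockout, 2.22 in Mist1+ and 1.45 in Mist1-.

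Succinyl-CoA ligase joins an alpha subunit, Suclg1, to a beta subunit that sets the nucleotide: Suclg2 for GTP or Sucla2 for ATP. The beta subunits differed in opposite directions between the labelled knockout and Mist1+. Suclg2 had 38.5 FPKM in the labelled knockout, 30.2 in Mist1+ and 31.6 in Mist1-, and was 1.27-fold (1.20 to 1.34) higher in the labelled knockout than in Mist1+. Sucla2 had 18.5, 20.5 and 26.4 FPKM and was 1.11-fold (1.03 to 1.20) lower. The ratio of Suclg2 to Sucla2 was thus 2.08 (1.94 to 2.22) in the labelled knockout, 1.47 (1.38 to 1.58) in Mist1+ and 1.20 (1.12 to 1.28) in Mist1-, and these intervals do not touch. The alpha subunit Suclg1 (ENSMUSG00000052738, chromosome 6, 73248382 to 73276911, plus strand) had 28.1, 20.3 and 33.2 FPKM. It was lowest in Mist1+, 1.64-fold (1.53 to 1.75) below Mist1-, and 1.38-fold (1.29 to 1.48) higher in the labelled knockout than in Mist1+.

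Genes of the last steps of the cycle were highest in Mist1-. Mdh2 (ENSMUSG00000019179, chromosome 5, 135778480 to 135790398, plus strand), the mitochondrial malate dehydrogenase, had 3086 counts in the labelled knockout, 3769 in Mist1+ and 5729 in Mist1-. It was 1.24-fold (1.18 to 1.30) lower in the labelled knockout than in Mist1+ and 1.65-fold (1.58 to 1.72) lower in Mist1+ than in Mist1-. With the length trend removed the log2 ratio of Mist1+ to Mist1- was still -0.61, beside -0.71. Fumarate hydratase, Fh1, had 35.7, 39.5 and 55.7 FPKM and was 1.41-fold (1.33 to 1.49) lower in Mist1+ than in Mist1-. The cytosolic Mdh1 was 1.52-fold (1.46 to 1.58) lower in Mist1+ than in Mist1- and close to level between the labelled knockout and Mist1+. With the length trend removed, the log2 ratios of Mist1+ to Mist1- were -0.35 for Fh1 and -0.31 for Mdh1, beside -0.49 and -0.60. The ratio of Mdh2 to Mdh1 was 0.556 in the labelled knockout, 0.669 in Mist1+ and 0.724 in Mist1-.

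Of 26 other genes of the cycle and its side branches, 24 passed the filter. In the labelled knockout against Mist1+ their median log2 ratio was 0.08, with 1 past 2-fold on each side. In Mist1+ against Mist1- it was -0.01, with none past 2-fold. The higher in the labelled knockout was Pck2, the mitochondrial phosphoenolpyruvate carboxykinase, with 17.1, 6.65 and 6.86 FPKM, 2.57-fold (2.37 to 2.79) higher. The lower was Slc25a10, the dicarboxylate carrier, with 24.3, 53.7 and 53.1 FPKM, 2.21-fold (2.07 to 2.36) lower. The malic enzyme gene Me1, which yields cytosolic NADPH, had 56.4, 29.1 and 40.8 FPKM and was 1.94-fold (1.83 to 2.06) higher in the labelled knockout than in Mist1+. Sdhb, the iron-sulphur subunit of succinate dehydrogenase, had 38.1, 40.1 and 66.5 FPKM and was 1.66-fold (1.55 to 1.77) lower in Mist1+ than in Mist1-. That log2 ratio was -0.72 as reported and -0.32 with the length trend removed.

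In the carnitine shuttle all 3 genes were lower in the labelled knockout than in Mist1+, by small amounts, where 58.8% of all genes were below 0. Of all genes, 41.6% had a lower log2 ratio than Cpt1a, 47.2% than Cpt2 and 30.8% than Slc25a20. Their summed counts were 1.15-fold (1.07 to 1.24) lower. Cpt1a (ENSMUSG00000024900, chromosome 19, 3322334 to 3385733, plus strand), which commits long-chain fatty acids to oxidation, had 671 counts in the labelled knockout, 765 in Mist1+ and 458 in Mist1-. It was 1.15-fold (1.04 to 1.28) lower in the labelled knockout than in Mist1+ and 1.54-fold (1.37 to 1.74) higher in Mist1+ than Mist1-. Its transcript is long, at 7642 bases, and the log2 ratio of Mist1+ to Mist1- was 0.52 as reported and 0.16 with the length trend removed. Cpt2 had 14.4, 15.7 and 16.7 FPKM. Slc25a20, with 143, 190 and 200 counts, was 1.35-fold (1.08 to 1.68) lower in the labelled knockout than in Mist1+. The muscle form Cpt1b was below an FPKM of 1 in all 3 libraries, and Cpt1c, a form best known from brain, had 2.03, 0.880 and 0.760 FPKM, so Cpt1a was the main carnitine palmitoyltransferase 1 transcript here.

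Malonyl-CoA, the product of acetyl-CoA carboxylase, inhibits Cpt1a. Acacb, the carboxylase form at the mitochondrial membrane, had 993 counts in the labelled knockout, 288 in Mist1+ and 232 in Mist1-, and was 3.40-fold (2.98 to 3.89) higher in the labelled knockout than in Mist1+. Acaca, the cytosolic form that feeds fatty acid synthesis, had 4.29, 6.09 and 2.94 FPKM and was 1.42-fold (1.32 to 1.53) lower in the same comparison. Mlycd, the decarboxylase that removes malonyl-CoA, had 9.08, 9.64 and 11.4 FPKM and was named after its values were seen. Within the 17 genes of fatty acid uptake, storage and signalling, 11 passed the filter. Against Mist1+, Acacb and Angptl4, a secreted lipase inhibitor induced by fatty acids and hypoxia, were past 2-fold higher in the labelled knockout and none was past 2-fold lower, with a median log2 ratio of -0.09. The fatty acid binding protein gene Fabp5 had 48.9, 63.1 and 212 FPKM and was 3.37-fold (3.24 to 3.50) lower in Mist1+ than in Mist1-.

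In beta-oxidation the genes spread to both sides in the labelled knockout, 4 of 11 above 0 and 7 below. For Mist1+ against Mist1-, Echs1, Eci1, Eci2 and Acaa2 were lower under every scaling and with the length trend removed, and the other 7 changed sign with at least 1 of these. The first step is taken by acyl-CoA dehydrogenases of different chain length. Acadvl, for very long chains, had 22.6, 23.5 and 27.5 FPKM, and 42.9% of its exonic bases lie across Dvl2 on the other strand, so its counts are uncertain. Acadl, for long chains, had 39.8 FPKM in the labelled knockout, 47.7 in Mist1+ and 61.6 in Mist1-. It was 1.20-fold (1.11 to 1.29) lower in the labelled knockout than in Mist1+. Acadm, for medium chains, had 21.3, 20.0 and 22.2 FPKM, and Acads, for short chains, had 768, 736 and 881 counts. Their log2 ratios for the labelled knockout against Mist1+ were 0.08 and 0.04. The ratio of Acadm to Acadl was 0.534 in the labelled knockout, 0.419 in Mist1+ and 0.361 in Mist1-, with intervals that do not touch. Acadm is the longer gene, at 3913 bases beside 2005. Their log2 ratios of Mist1+ to Mist1- were -0.15 and -0.36, but -0.11 and 0.10 with the length trend removed.

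The later steps on long chains are carried out by the trifunctional protein, whose alpha and beta subunits are encoded by Hadha and Hadhb. The genes stand head to head on chromosome 5, Hadha (ENSMUSG00000025745) at 30118304 to 30155162 on the minus strand and Hadhb (ENSMUSG00000059447) at 30155248 to 30184593 on the plus strand. Their RefSeq start sites lie 273 bases apart, so that their promoter windows overlap. The shared stretch is shown because both genes encode subunits of the same protein, and its part in their levels was not tested. The RefSeq promoter window of Hadha, from 250 bases before to 50 after its start (GRCm38.p6, chr5:30154931-30155230, minus strand, 5′ to 3′), is printed with the 228 bases it shares with the window of Hadhb in capitals.
Hadha promoter: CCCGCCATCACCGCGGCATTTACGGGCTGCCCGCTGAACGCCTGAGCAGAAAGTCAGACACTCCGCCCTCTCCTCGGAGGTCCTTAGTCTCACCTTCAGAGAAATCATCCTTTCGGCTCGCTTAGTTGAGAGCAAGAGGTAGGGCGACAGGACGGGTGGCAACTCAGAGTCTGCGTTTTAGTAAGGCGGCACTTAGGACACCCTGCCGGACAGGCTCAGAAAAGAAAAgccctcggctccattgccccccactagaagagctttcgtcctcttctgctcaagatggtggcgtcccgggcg

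Hadha had 2134 counts in the labelled knockout, 3383 in Mist1+ and 3012 in Mist1-. The labelled knockout was the low library, 1.61-fold (1.52 to 1.70) below Mist1+, and only 9.14% of all genes had a lower log2 ratio. Hadhb had 10.6, 13.3 and 14.5 FPKM and was 1.25-fold (1.16 to 1.36) lower in the labelled knockout than in Mist1+. Both subunits were thus lower, but not by the same factor: the ratio of Hadha to Hadhb was 1.41 (1.31 to 1.51) in the labelled knockout, 1.80 (1.69 to 1.92) in Mist1+ and 1.59 (1.49 to 1.70) in Mist1-. A pseudogene of Hadhb, Hadhb-ps, had 275, 343 and 303 counts, so the counts of Hadhb are uncertain. Between Mist1+ and Mist1- the log2 ratios were 0.05 and -0.12, with signs that turned with the scaling.

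Echs1 (ENSMUSG00000025465, chromosome 7, 140105710 to 140116476, minus strand), the short-chain enoyl-CoA hydratase, had 3100 counts in the labelled knockout, 1858 in Mist1+ and 2673 in Mist1-. Mist1+ was the low library. Echs1 was 1.65-fold (1.55 to 1.75) higher in the labelled knockout than in Mist1+, the largest ratio among the 35 genes in that comparison, and 1.56-fold (1.47 to 1.65) lower in Mist1+ than in Mist1-. Its neighbour Paox on the other strand, with which it shares 1.71% of its exonic bases, had 835, 445 and 633 counts, the same order. Hadh, the dehydrogenase that acts after it, had 26.2, 28.7 and 29.5 FPKM. The ratio of Echs1 to Hadh was 0.872 in the labelled knockout, 0.483 in Mist1+ and 0.731 in Mist1-.

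Isomerases that move double bonds into place differed from each other. Eci1 had 12.8, 15.3 and 25.2 FPKM, was 1.20-fold (1.06 to 1.37) lower in the labelled knockout than in Mist1+ and 1.64-fold (1.47 to 1.84) lower in Mist1+ than in Mist1-. The latter log2 ratio was -0.68 as reported and -0.25 with the length trend removed. Eci2 had 717, 538 and 770 counts and was 1.32-fold (1.17 to 1.47) higher in the labelled knockout than in Mist1+. The thiolase gene Acaa2, which releases acetyl-CoA, had 50.4 FPKM in the labelled knockout, 62.5 in Mist1+ and 95.9 in Mist1-. The order of the libraries was that of Eci1 and Mdh2, and Acaa2 was 1.24-fold (1.15 to 1.34) lower in the labelled knockout than in Mist1+ and 1.53-fold (1.44 to 1.64) lower in Mist1+ than in Mist1-. Acaa2 is a short transcript of 1516 bases, and with the length trend removed its log2 ratio of Mist1+ to Mist1- was -0.04.

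The electron transfer flavoprotein is a dimer of Etfa and Etfb, and the ratio of their transcripts differed the most between libraries of the 12 ratios formed. Both promoters are shown because the genes encode subunits of 1 protein and yet differed. These are the RefSeq windows from 250 bases before to 50 after the start, in GRCm38.p6, 5′ to 3′ on the gene's strand: Etfa at chr9:55512194-55512493 on the minus strand and Etfb at chr7:43443822-43444121 on the plus strand. Capitals mark CCAAT on either strand (ATTGG on the other) and, in Etfb, the motif of the factor NRF1, a regulator of mitochondrial genes: GCGCA and GCGC around any single base.
Etfa promoter: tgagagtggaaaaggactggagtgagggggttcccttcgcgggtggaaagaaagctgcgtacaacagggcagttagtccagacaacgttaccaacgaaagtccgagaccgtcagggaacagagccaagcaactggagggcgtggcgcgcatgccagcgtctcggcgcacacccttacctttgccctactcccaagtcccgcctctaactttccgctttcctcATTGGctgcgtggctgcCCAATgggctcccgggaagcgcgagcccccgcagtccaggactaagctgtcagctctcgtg
Etfb promoter: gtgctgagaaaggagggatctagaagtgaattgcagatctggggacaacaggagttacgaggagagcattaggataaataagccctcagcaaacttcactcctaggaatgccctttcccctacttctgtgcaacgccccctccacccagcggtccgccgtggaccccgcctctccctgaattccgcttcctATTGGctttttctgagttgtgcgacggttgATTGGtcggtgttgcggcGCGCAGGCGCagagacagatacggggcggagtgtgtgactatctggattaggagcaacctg
Both windows hold CCAAT at 2 places, and only that of Etfb holds the NRF1 motif. Nrf1 itself had 2.86 FPKM in the labelled knockout, 3.68 in Mist1+ and 2.89 in Mist1-. Whether the motif has a part in the difference between Etfa and Etfb was not tested.

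Etfb (ENSMUSG00000004610, chromosome 7, 43444083 to 43457800, plus strand) had 338 counts in the labelled knockout, 436 in Mist1+ and 1029 in Mist1-. Mist1- was far above the other libraries. Etfb was 2.56-fold (2.28 to 2.87) lower in Mist1+ than in Mist1-, a log2 ratio of -1.32, and was the only one of the 35 genes past 2-fold there. With the length trend removed the log2 ratio was -0.71 and with a common column sum it no longer reached 2-fold. It was 1.31-fold (1.13 to 1.51) lower in the labelled knockout than in Mist1+. In GENCODE M21, 53.0% of its exonic bases also belong to Gm45233 on the same strand, which had 1, 1 and 0 counts, so reads there may not have been counted and the level of Etfb is uncertain.

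Etfa (ENSMUSG00000032314, chromosome 9, 55454508 to 55512243, minus strand) had 78.0, 68.5 and 104 FPKM. It was 1.52-fold (1.44 to 1.61) lower in Mist1+ than in Mist1- and 1.14-fold (1.07 to 1.21) higher in the labelled knockout than in Mist1+. Etfa is short, at 1835 bases, and its log2 ratio of Mist1+ to Mist1- was -0.60 as reported and -0.09 with the length trend removed. The ratio of Etfa to Etfb was 4.41 (3.93 to 4.95) in the labelled knockout, 2.96 (2.67 to 3.29) in Mist1+ and 1.76 (1.64 to 1.90) in Mist1-. Between the labelled knockout and Mist1- this ratio differed 2.50-fold (2.18 to 2.86). Etfdh, the oxidoreductase that hands the electrons to ubiquinone, had 7.14, 8.37 and 6.91 FPKM, well below both subunits, and was 1.17-fold (1.07 to 1.28) lower in the labelled knockout than in Mist1+.

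**Figure D5:**
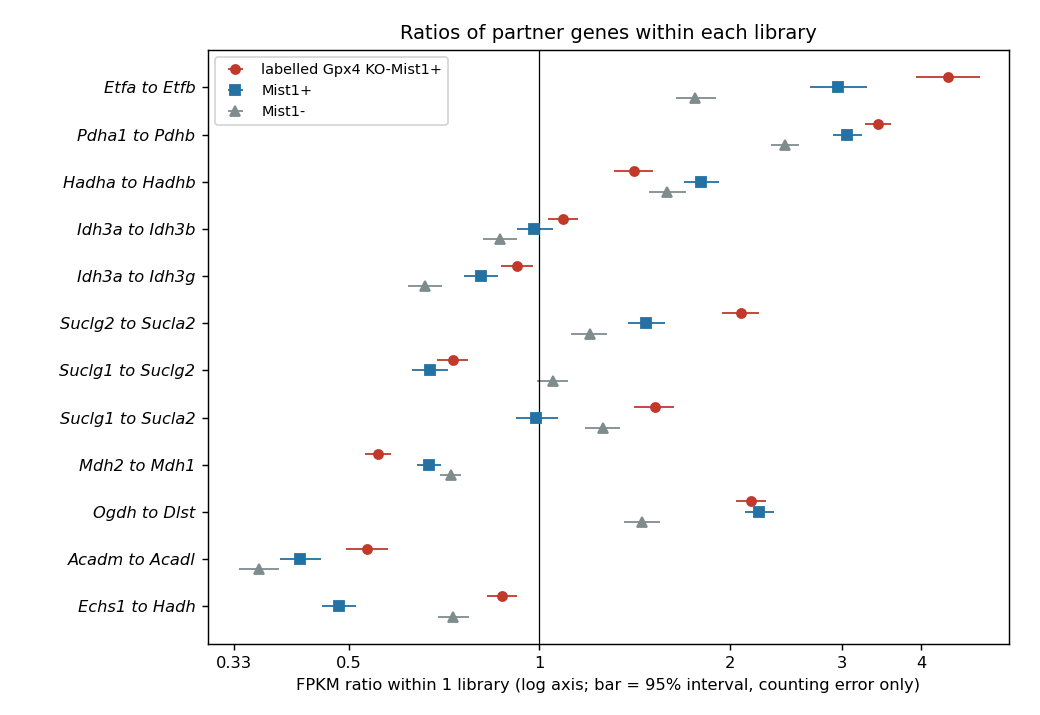
FPKM ratio of 12 gene combinations within each library on a log axis, with 95% intervals for counting error; red circles are the library labelled Gpx4 KO-Mist1+, blue squares Mist1+ and grey triangles Mist1-. The ratio of Etfa to Etfb is 4.41 in the labelled knockout, 2.96 in Mist1+ and 1.76 in Mist1-, and that of Suclg2 to Sucla2 is 2.08, 1.47 and 1.20.

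Promoter motifs were looked up in every available window. Of the 35 genes, 33 had a 300-base RefSeq window, of 27025 genes that did. The NRF1 motif stood in 12.1% of the 33 (Dld, Etfb, Etfdh and Sucla2) and in 4.78% of all windows. The ETS letters CCGGAAGT stood in 3 of the 33 and in 1081 of the 27025, CCAAT in 48.5% and 37.9%, and the hypoxia response core ACGTG in 15.2% and 19.7%, each on either strand. TNAAGGTCA, the letters of estrogen-related receptors, stood in none of the 33 and in 1.26% of all windows. A match in these letters describes the window and not a bound site.

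Fatty acid oxidation genes outside the 35 showed single large differences rather than a common one. Of 23 other mitochondrial genes 19 passed the filter. On the scale of FPKM + 1 none was 2-fold apart in the labelled knockout against Mist1+, with a median log2 ratio of 0.06. The acyl-CoA synthetase genes, which activate fatty acids, differed: Acsl1, linked to oxidation, had 4.41, 8.80 and 4.76 FPKM, a log2 ratio of -0.86 for the labelled knockout against Mist1+. Acsl4, which favours arachidonic acid and is known to promote ferroptosis, had 64.8, 41.8 and 29.5 FPKM and was 1.55-fold (1.49 to 1.61) higher. Of 15 peroxisomal genes 14 passed, 1 was at least 2-fold higher and the median was -0.09. That 1 was Acox2, an oxidase for branched chains and bile acid intermediates, with 405 counts in the labelled knockout, 46 in Mist1+ and 98 in Mist1-, or 8.69-fold (6.40 to 12.1) higher than in Mist1+. Of 5 ketone body genes 4 passed. Oxct1, which uses ketone bodies, had 73.8, 103 and 94.2 FPKM. Of 5 genes for attaching lipoate or biotin, all passed and none was at least 2-fold apart in the same comparison, with a median of -0.24. The synthase gene Lias, which builds the lipoate carried by Dlat and Dlst, had 4.99, 6.10 and 7.58 FPKM.

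Among 13 regulators of oxidative genes, 12 passed the filter. Against Mist1+, 1 was past 2-fold higher in the labelled knockout and none past 2-fold lower, with a median log2 ratio of 0.07. It was Ppargc1a (ENSMUSG00000029167, chromosome 5, 51454250 to 51567726, minus strand), a coactivator that drives mitochondrial genes in many tissues. Ppargc1a had 781 counts in the labelled knockout, 201 in Mist1+ and 90 in Mist1-. It was 3.84-fold (3.28 to 4.50) higher in the labelled knockout than in Mist1+. Esrra, the estrogen-related receptor with which it works, was 1.57-fold (1.42 to 1.74) higher, at 13.3, 8.45 and 9.75 FPKM, and Pparg was 1.87-fold (1.63 to 2.15) higher, at 12.4, 6.65 and 9.56. The median log2 ratio of the 35 oxidative genes in the same comparison was -0.09. The relative Pprc1 was 1.64-fold (1.48 to 1.81) lower, at 6.15, 10.1 and 5.18 FPKM. Ppara, the fatty acid receptor of liver, had 21, 30 and 4 counts.

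Between Mist1+ and Mist1- none of the 12 was 2-fold apart on the scale of FPKM + 1, but 9 were above 0, beside 58.8% of all genes. Their median log2 ratio was 0.63, or 0.33 with the length trend removed, beside 0.15 and 0.15 for all genes and -0.22 and -0.13 for the 35. Gabpa, which binds the ETS letters, was 1.93-fold (1.76 to 2.11) higher in Mist1+. It shares 6.98% of its exonic bases with Atp5j on the other strand. Atp5j had 1701 counts in the labelled knockout, 1754 in Mist1+ and 3525 in Mist1-, so the count of Gabpa is uncertain. The hypoxia-inducible factor genes Hif1a and Epas1 were 1.81-fold (1.65 to 1.97) and 1.88-fold (1.57 to 2.26) higher, and the fatty acid receptor gene Ppard was 1.74-fold (1.58 to 1.91) higher, under every scaling tried. Tfam, which packages mitochondrial DNA, had 16.1, 18.4 and 22.9 FPKM, the order of Mdh2 and Acaa2, with a log2 ratio of Mist1+ to Mist1- of -0.30 that was 0.01 with a common column sum. An antisense transcript to Hif1a, Gm15283, had 219, 46 and 114 counts and could add to or take from its count.

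Genes of mitochondrial import and mass, 15 in all, had a median log2 ratio of -0.04 for the labelled knockout against Mist1+ and -0.37 for Mist1+ against Mist1-, where the 35 genes had -0.09 and -0.22. The chaperonin gene Hspe1 had 78.6 FPKM in the labelled knockout, 90.8 in Mist1+ and 251 in Mist1-, and was 2.76-fold (2.63 to 2.90) lower in Mist1+ than in Mist1-. That log2 ratio was -1.45 as reported and -0.87 with the length trend removed. The 13 mitochondrially encoded genes took 4.94% of the counts in the labelled knockout, 4.13% in Mist1+ and 3.36% in Mist1-, the reverse of the order of the 35 nuclear genes between Mist1+ and Mist1-. The largest part was mt-Co1, with 501125, 294076 and 209727 counts, and nuclear copies of mitochondrial genes make these counts uncertain. The larger share in the labelled knockout than in Mist1+ came from mt-Co1. In that comparison 7 of the 13 had a log2 ratio below 0, beside 58.8% of all genes. The median log2 ratio over the 13 was -0.14 in both comparisons.

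The libraries also differed in markers of gastric cell types, whose part in these results was not tested. The summed FPKM of 7 parietal cell markers was 108 in the labelled knockout, 138 in Mist1+ and 86.8 in Mist1-, nearly all of it Slc9a4 and Kcnq1. That of 4 chief cell markers was 2593, 3413 and 1947, with Pga5 without counts, and that of 4 pit cell markers was 90.4, 98.0 and 713. Most of the pit cell sum was Tff1, with 87.7, 90.6 and 657 FPKM. Gkn1 and Gkn2 were also highest in Mist1-, at 22.2 and 33.5 FPKM. Muc5ac stayed below an FPKM of 1, with 0.180, 0.140 and 0.220. The neck cell markers disagreed: Tff2 had 111, 52.5 and 178 FPKM, and Muc6 had 20.6, 20.0 and 5.71.

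As reported, the lowest ratios of the labelled knockout against Mist1- were those of Etfb and Mdh2. Both were at least 2-fold lower, where 8.56% of all genes were, and none of the 35 was at least 2-fold higher, where 11.6% were. At 1.5-fold, 8 were lower and none higher, beside 20.1% and 25.6% of all genes, and with a common column sum 4 were lower and 2 higher. Above 0 stood 10 and below 0 stood 25, beside 54.3% and 45.2%. The median log2 ratio was -0.24, beside 0.09 for all genes, and with a common column sum these were 0.05 and 0.32. With the length trend removed they were -0.16 and 0.08, with 18 of the 35 below 0 and 4 lower by 1.5-fold. The matching shares of all genes were not worked out at that setting. Mdh2 was then within 2-fold, and Hadha was past it, with a log2 ratio of -1.02 beside -0.60 as reported. Mdh2 was 2.04-fold (1.95 to 2.13) and Etfb 3.34-fold (2.95 to 3.79) lower in the labelled knockout than in Mist1-. Eci1 and Acaa2 were 1.97-fold (1.75 to 2.22) and 1.90-fold (1.77 to 2.04) lower. The log2 ratios of Mdh2 and Etfb were -1.01 and -1.68, and -0.87 and -1.16 with the length trend removed. Those of Eci1 and Acaa2 were -0.93 and -0.91, and -0.50 and -0.39 with it removed. Calls over all genes were split 1553 higher to 1143 lower as reported, 2339 to 576 with a common column sum and 1281 to 1509 with median ratio scaling. This comparison shares a library with each of the others, so its values are not independent of them.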

How the data were processed

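RNA was measured in 1 library for each of 3 groups. Per the submitters' processing notes, the tools were cutadapt 1.9.1, HISAT2 2.2.1 and HTSeq 0.6.1, and the genome build was GRCm38.p5. The deposited table gives, per gene and library, a raw count and an FPKM. The deposited FPKM lay within 2.77% of count divided by exonic length and column total for genes with at least 50 counts. Counts without a gene symbol, at most 0.298% of a library, stayed in the totals. The table's own positions differed from GENCODE M21 for all 35 genes, so coordinates here are those of M21 on GRCm38, matched by gene identifier.

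The filter kept 13351 genes that reached an FPKM of 1 anywhere. A pseudocount of 1 was added to FPKM before the log2 ratio, which understates the change of low genes, and calls were made at 2-fold. Folds are ratios of counts scaled to column totals with exact 95% intervals from the binomial split, and single levels have exact Poisson intervals. The length trend was a lowess fit (fraction 0.3) on log2 exonic length, and ratios of partner genes divide counts by length within a library. Other settings were a pseudocount of 0.1 or 5, a filter of 5 FPKM or none, a common column sum, median ratio size factors, the length trend removed and 1.5-fold. The calling and the trend removal were tested on simulated data. Named genes were all 35 members, all genes of the gate and regulator lists, and up to 3 per other list with the largest ratios; exceptions are marked, and not all are printed. The members and lists were chosen with earlier results of these data known. The work was done in Python 3.11.15 with scipy 1.17.1, numpy 2.4.6, statsmodels 0.14.6, pandas 2.3.3 and matplotlib 3.10.9.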

Additional observations from a re-analysis of the deposited data

How the results depend on the processing

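The counts and medians of the 35 genes depended mainly on the scaling of the Mist1- library. With a common column sum, Mist1+ against Mist1- had 1 gene at least 2-fold higher and 0 lower, in place of 0 and 1, and a median log2 ratio of 0.09 in place of -0.22; the labelled knockout against Mist1- had 1 gene lower in place of 2 and a median of 0.05 in place of -0.24. The highest library was then the labelled knockout for 12 genes, Mist1+ for 13 and Mist1- for 10, and the lowest was Mist1+ for 6 and Mist1- for 17. With median ratio size factors, the medians were -0.44 for Mist1+ against Mist1- and -0.37 for the labelled knockout against Mist1-, where 4 genes were lower, and Mist1- was the lowest for 2. With a pseudocount of 5, 1 gene was lower in the labelled knockout than in Mist1-. With the length trend removed, 0 were lower in Mist1+ than in Mist1-. At 1.5-fold, the labelled knockout against Mist1+ had 1 gene higher and 1 lower, Mist1+ against Mist1- had 1 and 8, and the labelled knockout against Mist1- had 8 lower. The 60 other recomputed 2-fold counts, medians and counts of the highest and lowest library stayed within 1.5 times or within the counting interval. With a common column sum, the members below 0 were 14 in place of 27 for Mist1+ against Mist1- and 14 in place of 25 for the labelled knockout against Mist1-, and those 1.5-fold lower were 1 and 4 in place of 8 and 8. The matching shares of all genes were not worked out, and their medians moved to 0.40 and 0.32. For the labelled knockout against Mist1+, none was 1.5-fold apart with a pseudocount of 5, and with median ratio size factors none was 1.5-fold lower. For all genes, the 2-fold calls for Mist1+ against Mist1- were 1986 higher and 1130 lower with a pseudocount of 0.1 and 129 and 396 with one of 5. With a common column sum they were 2117 and 344, and with the length trend removed 797 and 327. In the labelled knockout against Mist1-, 1509 of all 13351 genes were 2-fold lower with median ratio size factors, where 4 of the 35 were. A common column sum gave 576 lower of all genes there, and a pseudocount of 5 gave 564. No paired analysis was possible because each group has 1 library. Depth limits Slc25a20 the most of the 35 genes, with 143, 190 and 200 counts, and a difference between cultures cannot be told apart from one between groups.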
